A study of Homo sapiens with 4 samples.

Results

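Small nucleolar RNAs (snoRNAs), small Cajal body RNAs (scaRNAs), spliceosomal small nuclear RNAs (snRNAs) and Y RNAs were followed in 2 human lung cancer cell lines with and without knockdown of TET1, an enzyme that oxidizes methylated cytosine in DNA. The probes were all those whose gene symbol began with SNORA, SNORD, SCARNA, RNU or RNY. This rule took 325 of the 47321 probes on each array, for 324 symbols. Of these, 124 (38.2%) had a detection p-value under 0.01 on at least 1 of the 4 arrays, against 42.1% of all probes. The groups were A549 cells given TET1 siRNA, A549 parent cells labelled vehicle, H1299 cells given TET1 siRNA and H1299 parent cells labelled vehicle. Each group was 1 Illumina bead array, so a difference within a line has no replicate check and no test. Total RNA was copied into biotin-labelled cRNA, and each value is a mean bead signal in arbitrary intensity units.

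Box C/D snoRNAs guide 2′-O-methylation and box H/ACA snoRNAs guide pseudouridylation, mostly of ribosomal RNA, while scaRNAs guide the same changes on spliceosomal snRNAs in Cajal bodies. Most human snoRNAs and scaRNAs are cut from introns of other genes, many of them for ribosomal proteins or for noncoding RNAs such as SNHG1 and GAS5. U1 snRNA and the U3 and U13 snoRNAs are instead transcribed from their own promoters, and U6 and the Y RNAs are made by RNA polymerase III. None of these mature RNAs carries the long poly(A) tail on which cRNA labelling with an oligo(dT) primer relies. The array labels do not say which molecule each probe captured, so a signal may come from the mature RNA, its precursor or the transcript around it, and this was not tested.

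The members were placed against gene spans of RefSeq GRCh38.p14, without regard to strand. By these spans 301 of the 325 lay inside another gene, 23 did not, and 1 had no single match. TAF1D, which encodes a subunit of the RNA polymerase I factor SL1, contained 6 detected members, and SNHG1 contained 4. These genes held the largest groups of detected members, so the start of each is shown, from 60 bases before the annotated start to 20 bases from it on. Capitals mark the longest run of C and T from the annotated start on, with bases before the start not counted. A run of C and T at the start is a feature of many snoRNA-containing genes and ribosomal protein genes. The sequences are from RefSeq GRCh38.p14, 5′ to 3′ on the minus strand, at chr11:93741476-93741555 for TAF1D and chr11:62855866-62855945 for SNHG1.
TAF1D: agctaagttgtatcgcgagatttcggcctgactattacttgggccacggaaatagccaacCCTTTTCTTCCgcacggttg
SNHG1: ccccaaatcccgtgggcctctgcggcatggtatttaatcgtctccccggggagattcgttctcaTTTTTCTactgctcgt
Counted in this way, the run of TAF1D was 11 bases long and opened at the annotated first base. The base just before that run is also c and was left out. That of SNHG1 was 7 bases long and opened at base 5. A run of at least 7 bases of C or T on the transcribed strand, opening within the first 5 bases, was present in 18 of 69 genes that contained a detected member (26.1%), taking the longest run over a gene's promoter entries. Counted the same way over all 27305 genes of the table, the share was 8.28%, and over single entries it was 6.59% of 35116. The limits of 7 and 5 bases equal the run of SNHG1, which is itself among the genes with detected members. The shares are thus descriptions and no test. This is a count of letters, and no use of the start sites was measured.

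Some facts of the arrays bear on every result. The A549 knockdown and H1299 control arrays detected more probes, 36.2% and 35.7% of all, than the A549 control and H1299 knockdown arrays with 29.5% and 30.5%. Across the 124 detected members, the normalized values of the A549 control array correlated with those of the H1299 knockdown array at r = 0.84, as high as with those of the A549 knockdown array (r = 0.84), and those of the H1299 pair at r = 0.71. Over all 19939 detected probes the A549 pair was highest, at r = 0.93, with 0.87 between A549 control and H1299 knockdown cells and 0.88 within the H1299 pair. These correlations are across probes that share an array, and are descriptions. The share of probes detected thus ran in opposite directions in the lines, higher in knockdown cells of A549 and lower in knockdown cells of H1299, and its part in the results below was not tested. TET1 was checked on 2 probes. The probe ILMN_3247163 read 164.5 in A549 knockdown and 222.1 in A549 control cells, and 186.8 in H1299 knockdown and 255.9 in H1299 control cells. It was detected in the controls only. The other, ILMN_1741056, was detected in H1299 control cells only, at 182.0 against 137.5 in H1299 knockdown cells. The labelled source is lung bronchial epithelium. Of 5 epithelial markers 4 were detected on both A549 arrays and 1 on both H1299 arrays, and 6 of 7 bronchial or alveolar markers were detected on no array. Among 4 leukocyte markers PTPRC, CD3E and LYZ were undetected throughout, and CD68 read 10626.0 in H1299 knockdown and 2748.0 in H1299 control cells.

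Detection differed by class and by array. Of the 102 box H/ACA probes 49 were detected on at least 1 array, of the 175 box C/D probes 46, of the 24 scaRNA probes 13, of the 16 spliceosomal probes 9, and all 4 of the Y RNA probes. Of 4 further snoRNA probes with RNU symbols 3 were detected. By array, 82 members were detected in A549 knockdown and 58 in A549 control cells, and 53 in H1299 knockdown and 107 in H1299 control cells. In H1299, 15 box C/D snoRNAs were detected in knockdown and 39 in control cells, 22 and 43 box H/ACA snoRNAs, and 6 and 12 scaRNAs. Spliceosomal snRNAs did not share this gap, with 6 detected on each H1299 array. Only 36 members were detected on all 4 arrays. Detection on the H1299 control array and no other was seen for 25 of the 124 (20.2%), against 6.24% of all detected probes. A further 19 (15.3%) were detected on the A549 knockdown and H1299 control arrays and no other, against 8.06% of all detected probes.

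**Figure D1:**
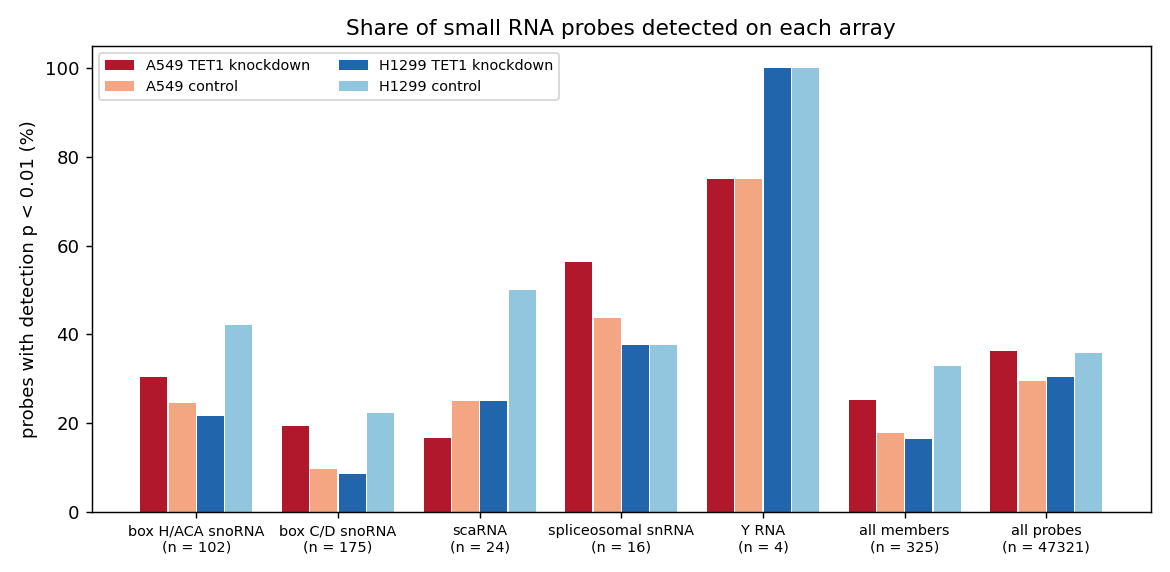
Share of probes with a detection p-value under 0.01 (y axis, percent) in each class, in all 325 members and in all 47321 probes, with 1 bar per array. Box C/D, box H/ACA and scaRNA bars are highest for H1299 control cells, while the spliceosomal bars of the H1299 pair are equal.

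Signals were low for most members. The median raw signal of all probes lay between 147.0 and 158.5 on the 4 arrays, and that of the 325 members between 141.3 and 151.5. Among probes detected on at least 1 array, the median of the mean raw signal was 198.2 for members and 346.8 for all probes. The shares of all detected probes given as background thus come from brighter probes, and the part of this in the differences was not tested. The brightest member probes were those of U6, the snRNA at the catalytic centre of the spliceosome. RNU6-1 read 1449.1 in A549 knockdown, 920.0 in A549 control, 1755.1 in H1299 knockdown and 1935.8 in H1299 control cells. RNU6-15 read nearly the same, at 1366.0, 901.5, 1820.1 and 1978.2 on the same arrays. The U6 copies are nearly identical in sequence, so these 2 probes are not separate measurements of separate genes. After normalization the U6 values differed by 0.10 and 0.17 on the log2 scale in A549 and by -0.34 and -0.36 in H1299, knockdown minus control.

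Apart from SNORA67 and SNORA12, described with the comparisons, the brightest snoRNAs were not 2-fold apart in either line. SNORD104, within SNHG25, read 903.7 in A549 knockdown, 706.2 in A549 control, 726.9 in H1299 knockdown and 947.5 in H1299 control cells, with changes of -0.22 and -0.47. SNORA61, within SNHG12, read 891.7, 723.1, 676.0 and 964.8 on the same arrays, with changes of -0.29 and -0.63. SNORA11D, within MAGED4, was the exception in direction, with 673.6 in H1299 knockdown and 426.9 in H1299 control cells, a change of 0.98, and -0.47 in A549. SNORD36C and SNORD36A, both within RPL7A, gave A549 changes of 0.21 and 0.49 and H1299 changes of -0.71 and -0.32. SNORD14A, a U14 copy that acts in small-subunit rRNA maturation, gave 0.04 and -0.13. Of the snoRNAs with RNU symbols, RNU105C and RNU86 were close to background, at most 192.5 on any array. SCARNA22 read 455.7 in H1299 knockdown and 519.6 in H1299 control cells, against 189.1 in A549 knockdown and 170.2 in A549 control cells, so that the lines did not overlap.

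The first comparison asked which members differed between knockdown and control cells of A549. Normalized values were used from here on, and a probe counted as apart at a difference of at least 2-fold if either array of the line detected it. Of the 90 members detected in A549, 6 were at least 2-fold higher in knockdown cells (6.67%, background 13.6% of all probes) and 14 lower (15.6%, background 8.34%). Their median change was -0.10 on the log2 scale, against -0.07 for all probes. Among the 50 members detected on both arrays 1 was higher and 7 lower, where all probes gave 8.06% and 8.57%. Members seen on 1 array alone had to differ to be counted, so the 325 members without any filter are also given: their median was -0.04, against -0.03 for all probes. The direction of the A549 median depended on scaling, since centring each array on its median in place of quantile normalization gave 0.47 for the members and 0.42 for all probes, with 11 members higher and 4 lower.

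Classes differed within A549. The 35 detected box C/D probes had a median change of 0.25, with 5 higher (14.3%, near the background of 13.6%) and 2 lower (5.71%, background 8.34%). This sign rested on probes detected in knockdown cells alone: the median was -0.13 over the 16 detected on both arrays and -0.0016 over all 175 without a filter. In the 34 box H/ACA probes the median was -0.32, though 0.20 with median centring. Of these probes 1 was higher (2.94%, background 13.6%) and 6 lower (17.6%, background 8.34%). Over the 22 detected on both arrays the median was -0.52, with 3 lower (13.6%, background 8.57%), and without a filter it was -0.06. The 8 scaRNAs had a median of -1.02, with none higher and 4 lower, and stayed below 0 under median centring at -0.47. Only 2 scaRNAs were detected on both A549 arrays, and the median of all 24 without a filter was -0.25. SCARNA13 read 172.2 in knockdown and 206.7 in control cells and was detected in control cells only, so that it was at least 2.64-fold lower in knockdown cells. SCARNA14 read 149.8 in knockdown and 182.1 in control cells, at least 1.76-fold lower. SCARNA18, detected in both, read 210.3 and 227.0 and was 2.27-fold lower after normalization. SCARNA10, also called U85, guides changes on U5 snRNA. It was the brightest scaRNA, at 653.6 in knockdown and 620.4 in control cells, a normalized change of -0.64.

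Among the other A549 members, RNY4 was the Y RNA furthest apart. Y RNAs are cytoplasmic partners of the Ro protein. RNY4 read 281.3 in knockdown and 467.3 in control cells, 3.98-fold lower after normalization. The other Y RNAs detected there gave -0.95 for RNY1, with near equal raw signals of 266.2 and 266.9, and -0.29 for RNY3, with a raw signal above that of control cells. These normalized changes were thus not present in the raw signal. SNORA12, which lies within CWF19L1, read 348.7 in knockdown and 636.6 in control cells, 3.94-fold lower. RNU11, the snRNA that recognizes the 5′ splice site of minor introns, read 192.7 in knockdown and 223.1 in control cells, 2.68-fold lower. RNY4, SNORA12, RNU11 and the named scaRNAs SCARNA13, SCARNA14 and SCARNA18 had lower raw signals in knockdown cells as well, while that of SCARNA10 was higher.

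The same comparison in H1299 gave more members lower in knockdown cells. Of 111 detected members 4 were at least 2-fold higher (3.6%, background 16.7%) and 35 lower (31.5%, background 19.3%). Their median change was -0.47, against 0.18 for all probes. With undetected values held at their detection bound, 3 remained higher and 19 lower. Most of the members counted as lower were detected in control cells alone. Among the 49 members detected on both H1299 arrays 2 were higher (4.08%, background 18.1%) and 5 lower (10.2%, background 12.6%), with a median of -0.08 against 0.35 for all probes. Among members measured on both arrays the share lower was therefore not above background. Without any filter, the 325 members had a median of -0.08, against 0.04 for all probes.

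Box C/D snoRNAs made up the most members lower in H1299 knockdown cells. Of the 42 detected in H1299, 19 were at least 2-fold lower in knockdown cells (45.2%, background 19.3%). Another 3 were higher (7.14%, background 16.7%), and the median was -0.84. Only 12 of the 42 were detected on both arrays, and of these 1 was lower (8.33%, below the background of 12.6%) and 1 higher, with a median of -0.35. Without a filter the class median was -0.06. SNORD31 guides methylation of the large-subunit rRNA. It read 149.1 in knockdown and 498.8 in control cells, at least 5.19-fold lower. SNORD30, which guides another site of that rRNA and lies in the same gene, read 143.7 and 448.2 in these cells, at least 4.48-fold lower. SNORD96A guides a site of 5.8S rRNA from within RACK1. It read 138.6 in knockdown and 346.6 in control cells, at least 2.97-fold lower. All 3 were undetected in the H1299 knockdown array, so only bounds can be given.

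Box H/ACA snoRNAs were lower as well, at a median of -0.63 over 44 detected probes. At least 2-fold lower were 15 (34.1%, background 19.3%), and 0 were higher (background 16.7%). Of the 21 detected on both arrays 4 were lower (background 12.6%), with a median of -0.14, and without a filter the median was -0.17. SNORA70 guides pseudouridylation of the small-subunit rRNA and lies within the ribosomal protein gene RPL10. Its signal was 144.7 in knockdown and 694.5 in control cells, at least 8.38-fold lower and the largest difference of any member. SNORA73A and SNORA73B, copies of the U17 snoRNA needed for cleavage of the rRNA precursor, were detected in H1299 control cells only, at 303.4 and 320.7 against 141.2 and 164.9 in knockdown cells. The probe named RNU105A maps to SNORA73B in RefSeq and gave the same picture, at 148.1 in knockdown and 331.2 in control cells. The 12 scaRNAs detected in H1299 had none apart by 2-fold and a median of -0.09.

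Members with no containing gene had another median in H1299. Of 15 such members 4 were at least 2-fold higher in knockdown cells (26.7%, background 16.7%) and 0 lower, and the median was 0.62. Of the 95 inside a gene 0 were higher and 35 lower (36.8%, background 19.3%), and the median was -0.63. With probes detected on both arrays only, the counts were 2 higher and 0 lower of 11 with no containing gene, and 0 higher and 5 lower of 37 inside a gene, with medians of 0.61 and -0.13, against 0.35 for all probes. These shares, 18.2% higher and 13.5% lower, were near the background of 18.1% and 12.6%. Without a filter the medians were 0.08 and -0.09, against 0.04 for all probes. In A549 the medians of the same groups were -0.10 and -0.08. Division by position was made with the earlier results of these arrays known, and the difference between the groups was not tested.

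**Figure D2:**
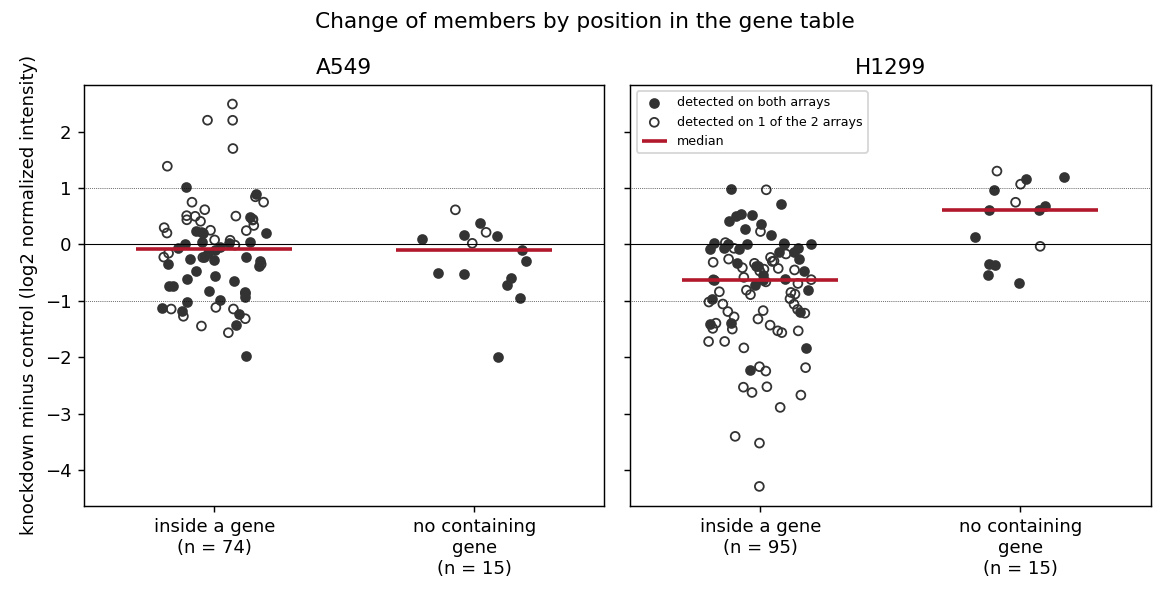
Change of each member detected in the line, knockdown minus control on the log2 scale (y axis), for members inside another gene and members with no containing gene, in A549 (left) and H1299 (right). Filled points were detected on both arrays, open points on 1, red bars are medians, and dotted lines mark 2-fold. In H1299 the 15 members without a containing gene have a median of 0.62 and the 95 inside a gene -0.63.

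The 4 higher members were a U1 copy, 2 U3 copies and U13. U1 snRNA recognizes the 5′ splice site. RNU1-3 read 239.9 in H1299 knockdown and 180.9 in H1299 control cells, 2.28-fold higher. All 4 U1 probes detected in H1299 had changes above 0, with a median of 0.68, against 0.35 for all probes detected on both arrays. The U1 copies are near identical, so these are not separate genes' values. U3 (SNORD3) is needed for the first cleavages of the rRNA precursor. SNORD3A read 274.7 in knockdown and 204.8 in control cells, 2.24-fold higher, and SNORD3D read 226.1 and 167.0, at least 2.28-fold higher. Both are copies of U3, and with SNORD3C, at 0.75, all 3 detected U3 probes had changes above 0. Only 1 of the 3 was detected on both H1299 arrays, so the filter set the sign of the others. Among all 17747 probes detected in H1299, 10002 had changes above 0. SNORD13 (U13), which takes part in acetylation of small-subunit rRNA, read 194.1 in knockdown and 149.0 in control cells, at least 1.46-fold higher. With an offset of 50, or without background correction, none of these 4 stayed past 2-fold in H1299, while the medians of members without a containing gene stayed above 0, at 0.45 and 0.44. In A549 the U1 median was -0.10 and the U3 median -0.50.

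Of the 4 Y RNAs none was apart by 2-fold in H1299. RNY1 read 431.5 in knockdown and 312.1 in control cells, a change of 0.96, and RNY3 read 443.1 and 455.9, a change of 0.13. RNY4 was lower there too, at 342.3 in knockdown and 492.0 in control cells, a change of -0.54. RNY5 read 197.8 and 173.4, a change of 0.62.

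Comparing the lines, 77 members were detected in both. Of these 1 was at least 2-fold lower in both (1.3%, background 0.0715%) and 0 higher in both (background 0.117%). SNORA67, which guides pseudouridylation of the small-subunit rRNA, was the 1 lower in both. Its probe read 1063.5 in A549 knockdown and 1646.8 in A549 control cells, and 299.3 in H1299 knockdown and 638.9 in H1299 control cells. It was 2.34-fold lower in A549 knockdown and 2.64-fold lower in H1299 knockdown cells and was detected on every array. It lies within EIF4A1, which encodes a translation initiation helicase. The probe of EIF4A1 differed by 1.37 in A549 and -1.13 in H1299, the reverse of SNORA67 in A549.

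Another 6 of the 77 were at least 2-fold higher in A549 knockdown cells and lower in H1299 knockdown cells (7.79%, background 11.1% of all probes), and 0 did the reverse (background 4.04%). The share was thus not above that of all probes. The 6 were SNORA70, SNORD31, SNORD4A, SNORD68, SNORD80 and SNORD16. Each lay within a ribosomal protein gene or a noncoding RNA gene: RPL10, SNHG1, RPL23A, RPL13, GAS5 and RPL4 in that order. SNORA70 read 329.8 in A549 knockdown and 136.0 in A549 control cells, at least 2.24-fold higher. SNORD4A read 387.2 in A549 knockdown and 159.1 in A549 control cells, and 151.1 in H1299 knockdown and 249.6 in H1299 control cells, at least 2.89-fold higher and at least 1.65-fold lower. SNORD31 read 286.0 in A549 knockdown and 132.4 in A549 control cells, at least 1.76-fold higher. SNORD68 read 262.2 in A549 knockdown and 145.4 in A549 control cells, and 165.9 in H1299 knockdown and 378.7 in H1299 control cells. It was detected in A549 knockdown and H1299 control cells only, and was at least 3.43-fold lower in H1299 knockdown cells. SNORD80 guides a site of the large-subunit rRNA and was the only one of the 6 measured on every array. It read 353.6 in A549 knockdown and 185.9 in A549 control cells, and 197.9 in H1299 knockdown and 503.3 in H1299 control cells, 2.02-fold higher and 4.66-fold lower. SNORD16 read 209.2 in A549 knockdown and 126.9 in A549 control cells, and 150.7 in H1299 knockdown and 213.9 in H1299 control cells, with no bound above 1 in A549 and at least 1.21-fold lower in H1299. The higher signals of A549 knockdown and H1299 control cells within each line follow from how the 6 were picked. These arrays also detected more probes in total, and the part of this was not tested.

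**Figure D3:**
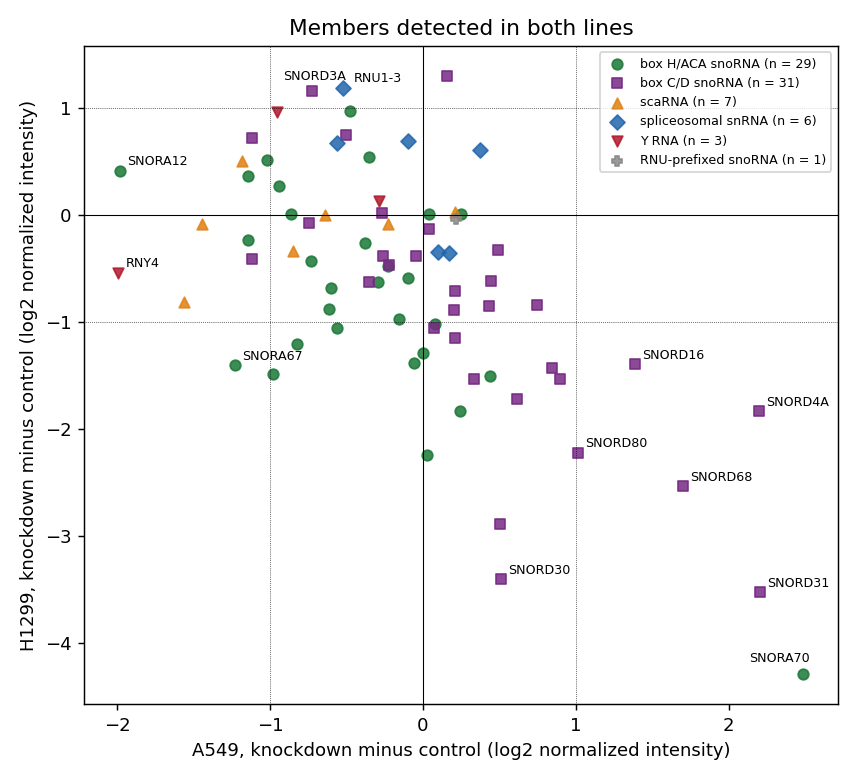
Change in A549 (x axis) against change in H1299 (y axis), knockdown minus control on the log2 scale, for the 77 members detected in both lines, by class. Dotted lines mark 2-fold. The lower right corner holds the 6 members higher in A549 and lower in H1299, and SNORA67 stands alone among those 2-fold lower in both.

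**Figure D4:**
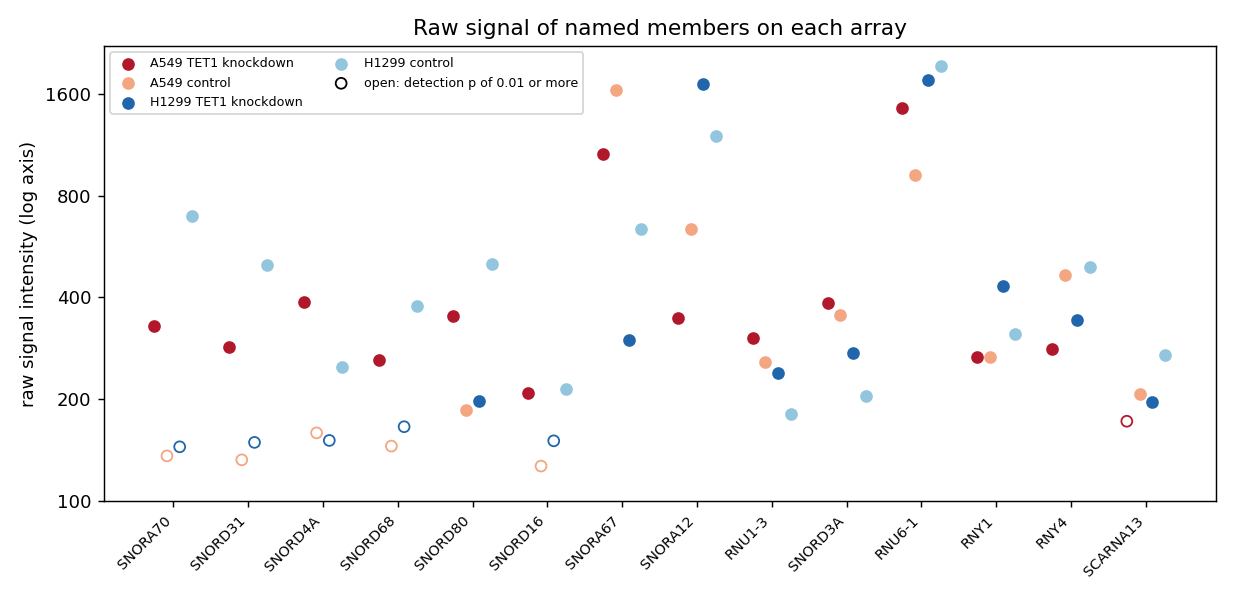
Raw signal (y axis, log scale) of 14 named members on the 4 arrays, open where the detection p-value was 0.01 or more. The first 6 names were picked for being higher in A549 knockdown and lower in H1299 knockdown cells than in control cells.

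Signs across the lines are given for the 36 members detected on all 4 arrays, since the filter sets the sign of a member seen only on the arrays where it is high. Of 14 box H/ACA snoRNAs 7 were negative in both lines, and of 11 box C/D snoRNAs 4 (36.4%), where 11894 probes detected on all arrays gave 8.57%. Positive in A549 and negative in H1299 were 1 of the 14 and 4 of the 11, where all probes gave 26.6%. The sign of the A549 medians depended on scaling, as given above. These are descriptions of probes that lie on the same 4 arrays.

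limma fitted line and knockdown to all 17002 probes detected on at least 2 arrays, 85 of them members. No member passed at an adjusted p of 0.05 (background 0.00588% higher and 0% lower), and 0 had an unadjusted p under 0.05. For SNORA67 the fitted change was -1.32 ± 0.91 (SE) over the 4 arrays. Its unadjusted limma p was 0.149 and its adjusted p was 1. Only 1 residual degree of freedom, the disagreement of the lines, was left per probe. The prior degrees of freedom were estimated as infinite. Each SE thus came from the intensity trend over all 17002 probes, not from how far the lines disagreed for that probe. In this fit 1 of all probes passed. Between lines, H1299 minus A549, 0 of the 85 members passed (background 1.28% higher and 2.55% lower). By unadjusted limma p, 1717 of all 17002 probes were under 0.05 here, a larger share than the 3 of 85 members. These members were SCARNA22, SNORA12 and SNORA67, all with adjusted p above 0.05. Of these 3, SNORA12 had the highest raw signal in H1299, at 1714.8 in knockdown and 1203.9 in control cells.

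TAF1D and SNHG1 contained the most detected members. Within TAF1D in H1299, 5 of 6 members were at least 2-fold lower in knockdown cells. Among all probes 19.3% were lower, and 12.6% of those detected on both arrays. TAF1D was picked for its number of detected members, and these counts were not tested. SNORA8 read 182.9 in knockdown and 418.0 in control cells, and SNORA25 read 749.7 in knockdown and 648.0 in control cells, a change of 0.27. The TAF1D probe read 399.9 in knockdown and 553.0 in control cells, a change of -0.47, the direction of 5 of its 6 members. Of these 5, SNORA18 and SNORA32, detected on both arrays, were 2.61-fold and 3.56-fold lower. SNORA1, SNORA8 and SNORD6 were undetected in knockdown cells, so the filter set their sign. All 4 members within SNHG1 were detected in H1299 control cells and undetected in H1299 knockdown cells. Only bounds can be given: at least 1.57-fold lower for SNORD22, at least 4.48-fold for SNORD30 and at least 5.19-fold for SNORD31, with none above 1 for SNORD25. The SNHG1 probe read 5958.5 in knockdown and 5652.1 in control cells, a change of -0.18. In A549 the members of TAF1D ranged from -0.94 to 0.34 and those of SNHG1 from 0.07 to 2.20.

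**Figure D5:**
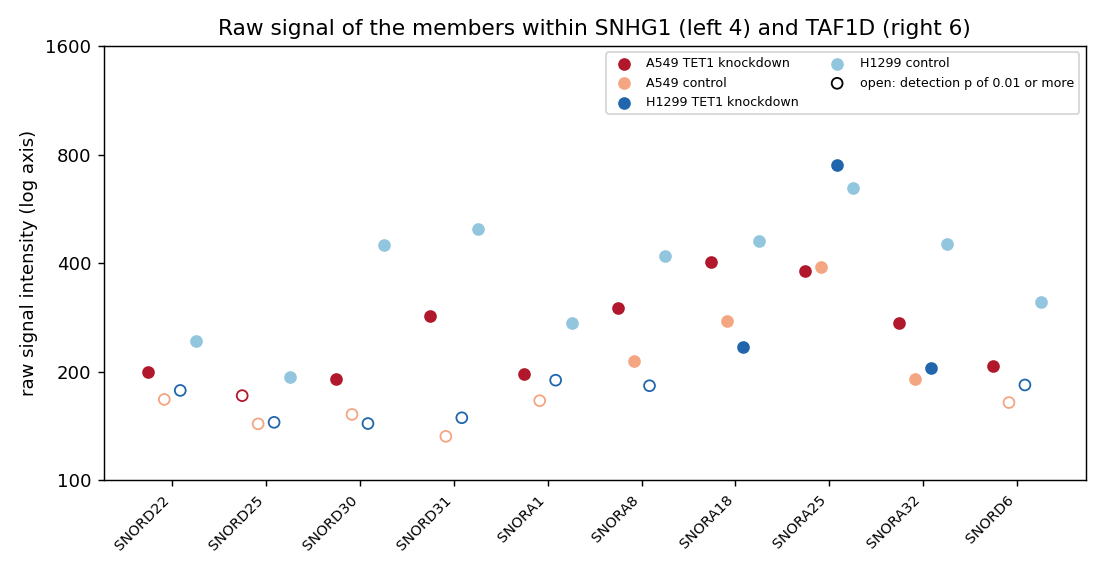
Raw signal (y axis, log scale) of the 4 members within SNHG1 and the 6 within TAF1D on the 4 arrays, open where the detection p-value was 0.01 or more. H1299 control signals (light blue) are above H1299 knockdown signals (dark blue) for all but SNORA25.

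RPL7A went with both of its members, at 0.28 in A549 and -0.11 in H1299. Over all members with a measurable containing gene, the change of the member and that of the gene correlated across 59 pairs in A549 at Pearson r = 0.05 and Spearman rho = 0.10, with 30 of the same sign. In H1299, 77 pairs gave r = -0.02 and rho = 0.06, with 42 of the same sign. Pairs that share a gene are not independent, and 45 and 54 genes contributed. The probe of RPS2, which contains SNORA10 and SNORA64, was 4.23 higher in A549 and -5.16 in H1299 on the log2 scale, where SNORA10 gave -0.15 and -0.97.

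Members within ribosomal protein genes were counted as well. Of 22 detected in A549, 4 were at least 2-fold higher (18.2%, background 13.6%) and 0 lower, and of 27 in H1299, 0 were higher and 11 lower (40.7%, background 19.3%). Their medians were 0.32 and -0.89. Among those detected on both arrays, 10 in A549 and 7 in H1299, none was apart by 2-fold, and the medians were -0.19 and -0.32. The A549 sign thus rested on probes seen on 1 array.

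Proteins that build these RNAs into particles were read from 8 lists. The lists were chosen with earlier results of these arrays known. Among all genes, 11.3% were at least 2-fold higher and 8.76% lower in A549 knockdown cells, and 18.6% higher and 15.1% lower in H1299 knockdown cells. Of 12 box C/D particle and assembly genes 3 were higher in A549 and 3 lower in H1299, and 0 the reverse. RUVBL1, an ATPase that helps assemble snoRNPs, read 866.2 in A549 knockdown and 187.6 in A549 control cells, and 269.3 in H1299 knockdown and 1535.0 in H1299 control cells, 6.79-fold higher and 9.26-fold lower. Its partner RUVBL2 gave 5.96-fold higher and 5.77-fold lower. The core proteins did not follow them: FBL, the methyltransferase, gave -0.33 and 0.54, and NOP56 gave -0.56 and 0.02. Of 6 box H/ACA genes 2 were higher in A549 and 2 lower in H1299. These were NHP2, a core protein, 2.60-fold higher and 2.41-fold lower, and SHQ1, an assembly factor, 2.91-fold higher and at least 5.85-fold lower. DKC1, the pseudouridine synthase, gave -0.03 and -0.23.

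Genes of the spliceosomal particles were mixed. Of 14 Sm and LSm proteins 3 were higher in A549 with 0 lower, and 1 higher and 4 lower in H1299. LSM4, of the ring that binds U6, was 4.45-fold higher and 8.88-fold lower. Of 11 detected Cajal body and SMN genes, 1 was higher and 2 lower in A549, and 1 higher and 3 lower in H1299. GEMIN5, which recognizes snRNAs for Sm ring assembly, was 2.12-fold higher and 6.92-fold lower. COIL, the scaffold of Cajal bodies, gave -0.80 and 0.92. Of 29 genes for snRNA transcription, processing and export, 1 was higher and 1 lower in A549 and 4 higher and 1 lower in H1299. NCBP2, of the cap-binding complex, was 4.52-fold lower in H1299 knockdown cells, with -0.01 in A549. Among snRNP proteins 3 of 19 were higher and 2 lower in A549, and 4 of 20 higher and 5 lower in H1299. SNRPA, the U1 protein, was 3.53-fold higher and 6.79-fold lower. Of 8 Y RNA binding and maturation genes, 1 was higher and 1 lower in A549 and none was apart in H1299. Of 13 noncoding snoRNA-containing genes, 2 were higher and 3 lower in A549 and 2 higher and 3 lower in H1299. SNHG7 was at least 6.58-fold higher in A549 knockdown cells and 3.58-fold lower in H1299 knockdown cells. No gene of the lists passed in the limma fit, where 112 were tested and 0 had an unadjusted p under 0.05.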

How the data were processed

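The 4 arrays were grouped by their titles. The deposited intensity of 47321 probes per array is neither background-subtracted nor normalized, and the same deposited table gives a detection p-value per probe, per the file headers. A second deposited table holds log2-like values that the authors made with lumi, per the submitters' processing notes. Its transformation is not given in the sources used here, and it served as an alternative. Normalization was neqc in limma 3.58.1 (R 4.3.3): normexp background correction, with negative controls taken from the p-values of detection, then an added 16, quantile normalization and log2. For a probe undetected on 1 side of a comparison the fold is a bound: that side was held at the lowest normalized level of any detected probe there, or at its own level if higher. limma fitted line and knockdown with an intensity trend and Benjamini-Hochberg adjustment at 0.05 over 17002 probes, two-sided. A check on simulated data required recovery of calls at low noise only, not at noise as large as the disagreement of the lines. Alternatives were median centring, an offset of 50, no background correction, the deposited values, detection p under 0.05 and undetected values at their bound. The naming rule took up to 4 of the brightest detected members of each class, up to 4 with the biggest changes in each direction and line, members 2-fold apart in both lines, the genes that contain them, up to 4 genes of each list, and TET1. Other named members and genes were chosen after their values were seen. Symbols were updated through RefSeq: 305 members were current, 19 renamed and 1 matched several. The table of gene spans has no strand. The members, lists and grouping by position were chosen with earlier results of these data known. Nothing in the labels says that the samples were separate cultures. The spread behind the p-values is the disagreement of the lines over knockdown, not a spread of replicates. Differences of line, culture and array cannot be told apart in this spread. In the main limma fit this spread was pooled over all probes by the intensity trend, since the prior degrees of freedom were infinite. The number of arrays limits the precision. The labels' extraction text describes DNA although the molecule is total RNA.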

Additional observations from a re-analysis of the deposited data

Results flagged for a closer look

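For 6 members the change in A549 was above 0 and that in H1299 below 0, both past 2-fold, and the difference between the lines was not tested. A549 change minus H1299 change, on the log2 scale, was 6.78 for SNORA70, 5.73 for SNORD31, 4.23 for SNORD68, 4.04 for SNORD4A, 3.23 for SNORD80 and 2.78 for SNORD16. Only the value of SNORD80 was measured on every array. The other 5 were undetected in A549 control and H1299 knockdown cells, so their values are set against background readings and have no order. Held at the bounds, the changes of SNORA70 were 1.16 in A549 and -3.07 in H1299, and SNORD16 had no bound in A549. Their share was below that of all probes, and with undetected values at their bound 2 of the 6 were still 2-fold apart in both lines.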

How the results depend on the processing

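No member passed in the limma fit under any alternative run. Counts of members 2-fold apart moved with the scale. With the deposited values, which are flatter near background, 0 were higher and 2 lower in A549, 0 higher and 1 lower in H1299, 0 lower in both and 0 higher in A549 and lower in H1299. Without background correction 5 were lower in A549, and 0 were higher and 23 lower in H1299. An offset of 50 gave 5 lower in A549, and 0 higher and 22 lower in H1299. Median centring gave 11 higher and 4 lower in A549 and 2 higher in H1299. With undetected values at their bound, 3 were higher in A549, 19 lower in H1299 and 2 opposite in the lines. The cause was not tested. Of 26 changes of named members past 2-fold, 22 stayed so with median centring, 19 without background correction, 17 with an offset of 50 and 3 with the deposited values. In these 4 settings 0 reversed. Members were named in part for the size of their changes on these arrays, so the counts are descriptions. Of the 25 with a value at the bound, 19 stayed. A bound that changed side was left without a value, so no reversal could be seen there. Leaving out a line leaves no residual degree of freedom, so no call was made. No paired analysis was possible because each group holds 1 array, with the line as the only block. Without line in the fit 0 members passed as well. Signal over background limits most members: 201 of 325 were detected on no array.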

Other observations

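Probe identifiers of the members fall in an older series, with identifiers that open with ILMN_1 or ILMN_2, and a later series that opens with ILMN_3. Of the 62 members in the older series, 31 were detected in H1299, 1 higher and 16 lower in knockdown cells (51.6% lower, where all probes of that series gave 19.4%), and 26 in A549, 5 higher and 1 lower (19.2% higher, where all gave 13.8%). Of the 263 in the later series, 80 were detected in H1299, 3 higher and 19 lower (23.8% lower, where all probes of that series gave 18.4%), and 64 in A549, 1 higher and 13 lower (20.3% lower). With detection on both arrays of a line, the older series had 0 apart of 13 in A549 and 1 lower of 9 in H1299 (11.1%, where all gave 12.5%). The later series then had 1 higher and 7 lower of 37 in A549 (18.9% lower, where all gave 11.1%). In H1299 it had 2 higher and 4 lower of 40 (10.0% lower, where all gave 12.7%). Among the 6 members opposite in the lines 5 were of the older series, as were 1521 of the 1711 such probes among all.

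SCARNA16 overlaps the RefSeq hairpin of MIR6516 over 77 bases. It was detected on both control arrays only, at 170.7 in A549 knockdown and 176.8 in A549 control cells, and at 181.1 in H1299 knockdown and 198.3 in H1299 control cells.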
